A study of Mus musculus with 8 samples.

Results

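The comparison asked how a high-fat diet (HFD) changed cytokine and chemokine transcripts in uninjured liver of Rag1-Tbet DKO mice, which lack both Rag1 and Tbx21, the gene for the transcription factor T-bet. A pool of liver RNA labelled HFD Rag1-Tbet-DKO non-IRI was set against a pool labelled ND Rag1-Tbet-DKO non-IRI, where ND is the normal diet and IRI is ischemia-reperfusion injury. These are 2 of the 8 pools of a series that crosses genotype (Rag1-/- or Rag1-Tbet DKO), diet and injury, and all 84 array genes are described. HFD, with 60% of its energy from fat, was started at 5 to 7 weeks of life and fed for 12 weeks in 1 description and 12 to 15 weeks in another, and ND was started at 4 weeks and fed for 12 to 15 weeks, so that ages may have differed. For injured mice of both genotypes and diets the paper gives the same age range at evaluation, and it gives none for these pools. Mice without IRI were anesthetized and had a laparotomy with collection of blood and the whole liver, but no ischemia, and no recovery period is described for them. In the injured pools, part of the liver was clamped for 45 minutes and reperfused for 24 hours, and the left lobe was collected. The mice carried germline deletions obtained by crossing Rag1-/- with Tbx21-/- mice, so that the deletions were not limited to 1 cell type, and both pools compared here carried them.

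Rag1 is needed to assemble antigen receptors, and mice without it have no mature T or B cells. T-bet is needed by type 1 innate lymphoid cells (ILC1s), whereas NK cells that express Eomes remain without it, as do type 2 and type 3 innate lymphoid cells. Type 2 cells are known for IL-5 and IL-13 and depend on GATA-3, and type 3 cells are known for IL-17 and IL-22. Liver macrophages, endothelium, stellate cells and hepatocytes are the other main sources of the array's products.

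Each gene was read in 1 well of 1 pool, made from the RNA of at least 3 livers, so that no replicate error exists and no test was possible. The unit is the threshold cycle (Ct), the cycle at which the product is detected, so that each cycle earlier stands for roughly 2 times the transcript. No Ct in the table is above 35, which was taken as the limit of detection. Where 1 of the pools was at 35 the fold is a lower bound ("at least"), and where both were, none is given. Folds are HFD over ND after subtracting the mean Ct of Actb and Hsp90ab1, which was 15.04 in the ND pool and 15.51 in the HFD pool. In whole liver RNA, fewer cells of a type and less RNA per cell cannot be told apart.

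Both pools stood apart from the rest in part of their wells. The ND pool had the fewest genes at the limit of all 8 pools, 6 of 84, and the HFD pool had the most, 17, against 7 to 15 in the remaining 6 pools. In the ND pool, Il3 had a Ct of 9.36 and Cd40lg a Ct of 11.44, earlier than every housekeeping gene of that pool, the earliest of which was B2m at 12.36. No array gene came before the housekeeping genes in any of the other 7 pools, where Il3 was at 35 in all and Cd40lg was at 35 in 5. IL-3 and CD40 ligand are best known as products of activated T cells, which these mice lack, and 1 well each carries these values. Their Ct values are therefore given without a fold, and counts are also given without these genes and without Csf2. Rag1 and Tbx21 are not on the array, so the genotype label was not checked here. The hepatocyte markers Hc (complement C5) and Thpo (thrombopoietin) were measured in both pools. Their summed level relative to the references, nearly all of it Hc, was 1.22 on ND, above the range of 0.458 to 1.04 over the other 6 pools. On HFD it was 0.645, within that range. Thpo alone was within the range of the other 6 pools on both diets.

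On HFD, 23 genes were at least 2-fold lower and 5 were at least 2-fold higher. These were 29.1% and 6.33% of the 79 genes with a fold or a bound, and 26.3% and 6.58% of 76 genes without Il3, Cd40lg and Csf2. The lower genes included the type 2 cytokines Il5, Il4 and Il13, Csf2, Tnfsf11, Cxcl13, Ccl20, Il17a, Il6 and Il10, and the higher genes were Osm, Lta, Il12b, Cxcl3 and Il17f. The median log2 fold of the 66 genes measured in both pools was -0.47, with 50 genes below 0 and 16 above. The middle of the distribution was narrow, with quartiles at -0.84 and -0.07, and 39 of the 51 genes that did not reach 2-fold were below 0.

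**Figure D1:**
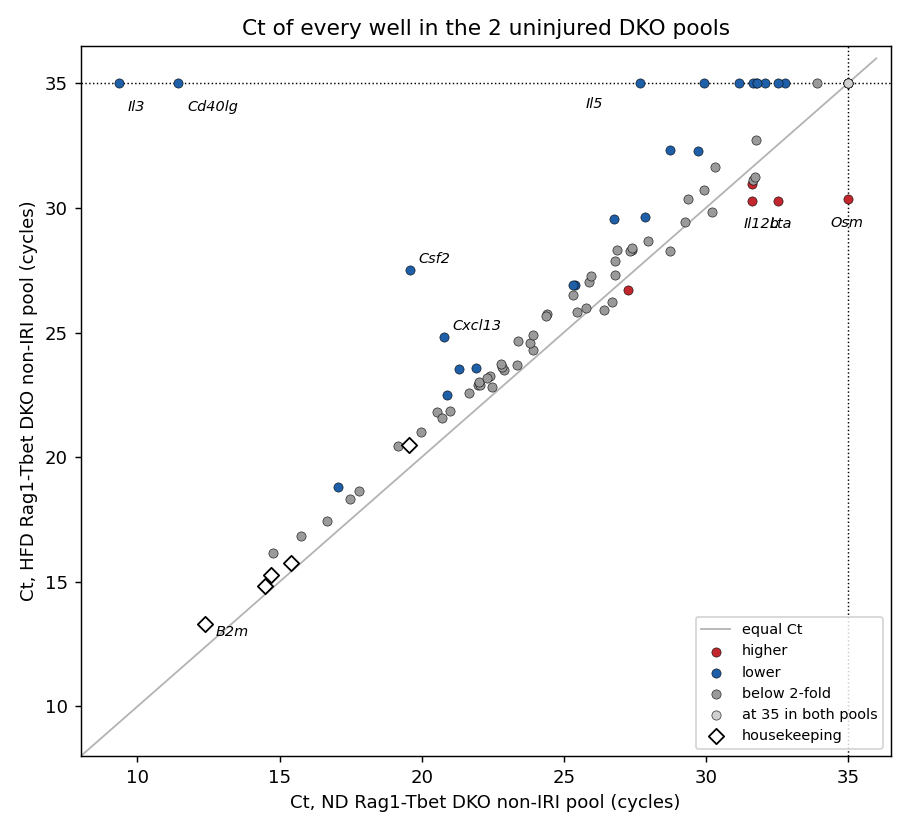
Ct of each of the 89 wells in the ND pool (x axis, cycles) and the HFD pool (y axis, cycles) of uninjured Rag1-Tbet DKO liver. Points are genes coloured by whether HFD was at least 2-fold higher or lower than ND, diamonds are housekeeping genes, and the dotted lines mark the limit of 35. Most points lie slightly above the line of equal Ct, 12 genes reach the limit only in the HFD pool, and Il3 and Cd40lg lie to the left of every housekeeping gene.

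How many genes counted as higher or lower depended on the reference, because another reference adds 1 constant to every log2 fold. All 5 housekeeping genes came later in the HFD pool, with Ct values on ND and HFD of 14.69 and 15.27 for Actb, 15.39 and 15.74 for Hsp90ab1, 14.48 and 14.85 for Gapdh, 12.36 and 13.32 for B2m, and 19.55 and 20.49 for Gusb. Relative to Actb and Hsp90ab1 their log2 folds were between -0.50 (B2m) and 0.12 (Hsp90ab1), with a standard deviation of 0.297. The median Ct of the 62 genes below 35 in all 8 pools was 24.15 on ND and 25.71 on HFD, 1.56 cycles later. Gene by gene, however, the median difference of the same 62 genes was 0.935 cycles, since the middle of the list falls on different genes in each pool. Setting the genes against the median Ct raised every log2 fold by 1.10 (18 genes higher, 13 lower), and centring them on the median fold raised it by 0.47 (11 higher, 17 lower). Under 8 references tried, 16 genes stayed at least 2-fold different on the same side. These were Osm, Lta and Il12b, which were higher, and Il3, Cd40lg, Csf2, Il5, Tnfsf11, Cxcl13, Adipoq, Il4, Il13, Ccl20, Il17a, Il11 and Il6, which were lower. The order of the genes does not change with the reference. With the limit set at 32 cycles, 7 genes detected late on ND (Adipoq, Ccl20, Il11, Il13, Il17a, Il2 and Mstn) were no longer called lower, and the log2 bounds shrank to -3.87 for Il5, -1.62 for Tnfsf11 and 2.13 for Osm, which remained past 2-fold.

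Of the 6 type 2 cytokines and eosinophil chemokines 4 were lower and none was higher, against 29.1% and 6.33% of all genes, with a median log2 fold of -2.10 against -0.52 over all 79 genes (bounds at their value in both). Il5, the growth and survival factor of eosinophils, had a Ct of 27.67 on ND and was at the limit of 35 on HFD, at least 117-fold lower. In the other 6 pools Il5 was measured throughout, with Ct values from 28.58 to 31.85. The HFD pool was thus the only one of the 8 in which Il5 was not detected, and relative to the references the ND level was above and the HFD level below all 6 other pools. Il4, the cytokine that drives type 2 polarisation, went from 28.73 on ND to 32.33 on HFD and was 8.78-fold lower, below the range of the other pools. Il13, a cytokine of epithelial and stellate cell responses, had a Ct of 31.65 on ND and was at the limit on HFD, at least 7.39-fold lower. Ccl11 (eotaxin), an attractant of eosinophils, was 2.49-fold lower, with Ct values of 27.85 and 29.63. The other eosinophil attractant on the array, Ccl24, was 1.39-fold lower and Il9, a mast cell growth factor, was 1.90-fold higher, so that the list did not move as 1 block. The call of Ccl11 was lost with the median Ct as reference or after centring and that of Il13 at a limit of 32, whereas Il5 and Il4 kept theirs under these settings.

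Csf2, the gene for GM-CSF, which acts on monocytes, macrophages and granulocytes, had a Ct of 19.59 on ND and 27.51 on HFD. This was a 175-fold lower level, the largest difference among genes measured in both pools. The ND value was near that of the ND IRI pool of the same genotype, 19.94, whereas the other 5 pools lay between 24 and 28.94, so that the HFD pool was in the range of the remaining pools. Il3, its neighbour on the chromosome and a growth factor of mast cells and basophils, was detected in the ND pool alone.

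According to the RefSeq annotation of GRCm38.p6, Il4, Il13, Il5, Csf2 and Il3 follow each other in this order along 1 stretch of chromosome 11, with 7 other protein-coding genes between them. All 5 array genes of this stretch were lower on HFD, or 4 of 4 without Il3, against 29.1% of all genes. Il4, Il13 and Il5, which remain without Il3 and Csf2, are also counted in the type 2 list above. The call of Il13 was lost at a limit of 32. Of the 13 other array genes on chromosome 11, 1 was lower (Ccl11) and 2 were higher (Osm and Il12b). The 150 bases before the start of 3 of these genes are shown because they belong to the same stretch and moved the same way. Capitals mark matches to the motif of GATA factors, searched on both strands in the forms AGATAA and also AGATAG, and the forms TGATAA and also TGATAG.
Il5, chr11:53720644-53720793, plus strand: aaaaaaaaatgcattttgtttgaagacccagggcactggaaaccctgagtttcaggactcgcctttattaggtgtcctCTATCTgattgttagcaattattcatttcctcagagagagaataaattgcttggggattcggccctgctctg
Il13, chr11:53634703-53634852, minus strand: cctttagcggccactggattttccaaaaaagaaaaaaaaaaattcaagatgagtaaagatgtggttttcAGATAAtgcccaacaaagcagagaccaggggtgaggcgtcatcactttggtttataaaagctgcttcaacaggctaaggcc
Csf2, chr11:54249900-54250049, minus strand: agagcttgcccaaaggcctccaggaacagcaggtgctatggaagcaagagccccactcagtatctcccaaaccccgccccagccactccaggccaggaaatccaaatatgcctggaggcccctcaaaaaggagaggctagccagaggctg
The Il5 and Il13 windows each hold 1 match, as does that of Il3, and those of Csf2 and Il4 hold none. Such a match was present in 16.0% of the 32851 promoter windows of the same length. It was in any window of 15 of the 62 array genes with a window, a count by gene that cannot be set beside the share of windows. The T-box half-site GTGTGA, searched on both strands, was in none of the 5 windows and in 7.52% of all windows. These matches describe the letters and not binding.

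Of the 6 genes of the IL-17 and IL-10 families with Ccl20, 5 had a fold or a bound, 3 were lower and 1 was higher, against 29.1% and 6.33% of all genes. Il17a, the signature cytokine of type 3 innate lymphoid cells and other IL-17 producers, was detected at 31.79 on ND and not on HFD, at least 6.70-fold lower. It was also not detected in any Rag1-/- pool and was at 31.92 in the ND IRI pool of Rag1-Tbet DKO mice, so that its detection was limited to the ND pools of this genotype. Its homologue Il17f went the other way by a small margin, with Ct values of 27.25 and 26.71 and a 2.01-fold higher level on HFD. Ccl20, the ligand of CCR6, was at 31.75 on ND and at the limit on HFD, at least 6.89-fold lower and below every other pool. Il10, an anti-inflammatory cytokine of macrophages and lymphocytes, had Ct values of 29.73 and 32.28 and was 4.24-fold lower. Its level was below the other 6 pools on both diets. Il22 was detected in the ND pool alone, at 33.90, close to the limit, and Il24 was detected in no pool.

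Genes of lymphoid tissue organisation and of bone-type TNF signalling split in direction. Cxcl13, the attractant of B cells that is also made by macrophages and stroma, had a Ct of 20.77 on ND and 24.82 on HFD. It was 12-fold lower, and the HFD level was below all other pools. Tnfsf11 (RANKL), which promotes osteoclast and lymph node development, was at 29.92 on ND and at the limit on HFD, at least 24.5-fold lower. The ND Rag1-/- non-IRI pool was the only other pool in which Tnfsf11 was not detected. Spp1 (osteopontin), a matrix protein of macrophages and biliary cells, was 2.47-fold lower, with Ct values of 17.05 and 18.82, and Tnfrsf11b (osteoprotegerin), the decoy receptor of RANKL, was 1.43-fold lower. Lta, which encodes lymphotoxin alpha, was higher on HFD, with Ct values of 32.55 and 30.29 and a 6.61-fold difference. In that case the ND pool was the outlying one, below the range of the 6 others, and the HFD pool lay within it. Its partner Ltb was 1.5-fold lower, and Il7, Tnfsf13b (BAFF) and Ccl19 were 1.33-fold to 1.80-fold lower.

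Osm, an inflammatory gp130 cytokine of macrophages and neutrophils, was the gene with the largest difference upward. It was at the limit on ND and at 30.34 on HFD, at least 34.9-fold higher. All other pools detected it at earlier cycles, from 25.01 to 29.23, and both uninjured Rag1-Tbet DKO pools were below them. The other gp130 cytokines did not follow Osm. Il6, a driver of the hepatic acute phase response, had Ct values of 26.77 and 29.57 and was 5.05-fold lower. Il11 was at 32.09 on ND and at the limit on HFD, at least 5.45-fold lower, and again both uninjured Rag1-Tbet DKO pools were below all others. Lif was 1.82-fold lower, and Ctf1 and Cntf were within 1.10-fold.

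Of the products of ILC1s and NK cells, Csf2 is given above and Xcl1 below, both lower, and the 4 death ligands and type 1 effectors did not reach 2-fold. Ifng had Ct values of 29.38 on ND and 30.35 on HFD and was 1.42-fold lower, and Tnf, at 27.41 and 28.38, was 1.42-fold lower as well. The death ligands Tnfsf10 (TRAIL), at 22.31 and 23.17, and Fasl, at 29.93 and 30.71, were 1.31-fold and 1.24-fold lower. These 4 genes lay on either side of the array median, which was 1.39-fold lower. Among the cytokines that stimulate these cells, Il12b (the p40 subunit of IL-12 and IL-23) had Ct values of 31.62 and 30.28 and was 3.49-fold higher on HFD. Il23a, the p19 subunit, was 1.91-fold higher, Il27 1.24-fold higher, Il15 1.24-fold lower and Il18 1.74-fold lower, and Il12a was at the limit on both diets. Of the interferon-induced chemokines, Cxcl9 was 1.61-fold, Cxcl10 1.31-fold and Cxcl11 1.03-fold lower, and Cxcl16, the ligand of CXCR6 on liver-resident lymphocytes, was 1.31-fold lower. Ifna2, whose sequence is close to that of other interferon alpha genes, was 1.43-fold lower, so that no gene of this list reached 2-fold.

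**Figure D2:**
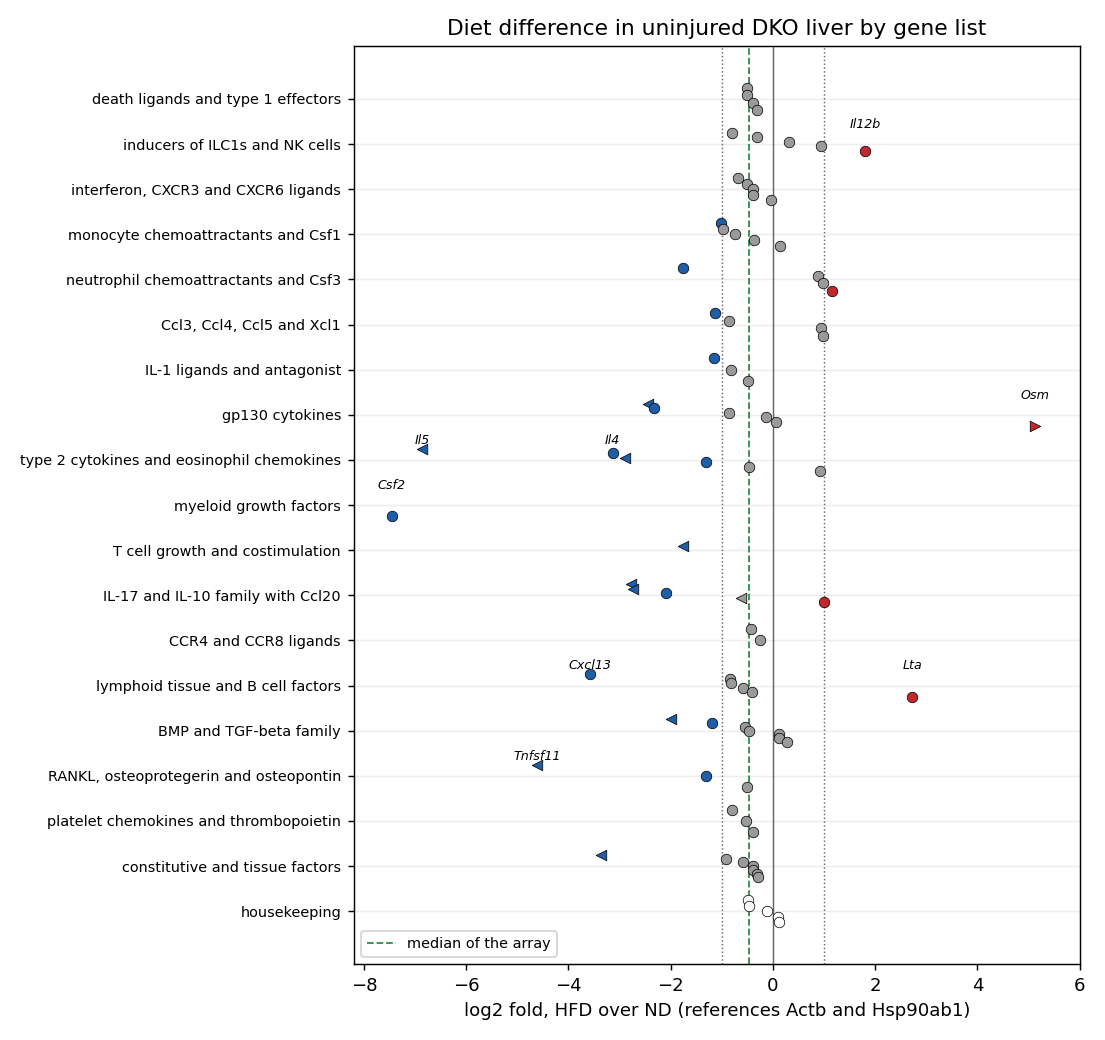
Log2 fold of HFD over ND in uninjured Rag1-Tbet DKO liver (x axis) for the genes of 18 lists and the housekeeping genes (rows). Circles are values, triangles are bounds that point to where the value lies, dotted lines mark 2-fold, and the dashed line is the array median of -0.47. Il3 and Cd40lg, detected at 9.36 and 11.44 cycles on ND only, are beyond the axis and not drawn. The type 2 list holds 4 of the 23 lower genes, whereas no death ligand or type 1 effector leaves the 2-fold lines.

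Chemoattractants of myeloid cells moved in both directions. Among neutrophil factors, Cxcl1, a CXCR2 ligand, was at 21.32 on ND and 23.54 on HFD, 3.38-fold lower and below the range of the other pools. Cxcl3, another CXCR2 ligand, was at 31.63 and 30.95 and 2.21-fold higher, and Csf3 and Cxcl5 were 1.98-fold and 1.83-fold higher. The 2-fold line thus separated near-equal values, with Il17f (2.01-fold) and Csf3 (1.98-fold) on either side. Of the attractants of monocytes, Cx3cl1 was 2.02-fold lower with Ct values of 25.41 and 26.89. Ccl12, a CCR2 ligand, was 1.97-fold lower, Ccl7 1.66-fold and Ccl2 1.29-fold lower, and Csf1, the growth factor of macrophages, was 1.10-fold higher. Ccl3 and Ccl4, chemokines made by macrophages and NK cells, were 1.97-fold and 1.91-fold higher, while Ccl5 was 1.82-fold lower and Xcl1, an attractant of cross-presenting dendritic cells made by NK cells, was 2.20-fold lower (25.32 and 26.92). Il1b was 2.21-fold lower, with Ct values of 20.88 and 22.49, Il1a was 1.77-fold lower and their antagonist Il1rn 1.40-fold lower.

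Of the remaining genes, 4 were lower. Adipoq, the gene for adiponectin and a marker of adipose tissue, was at 31.18 on ND and at the limit on HFD, at least 10.2-fold lower, and its ND level was above all other pools. Mstn (32.55 on ND) and Il2 (32.78) were also detected on ND only, at least 3.96-fold and at least 3.38-fold lower. Bmp6, a hepatic endothelial regulator of iron uptake, was 2.29-fold lower, with Ct values of 21.93 and 23.59, and the ND level was the outlying one. Bmp2, Bmp4, Bmp7, Nodal and Tgfb2 were within 1.46-fold, as were the platelet chemokine Pf4 and the CCR4 ligands Ccl17 and Ccl22. Among hepatocyte and constitutive products, Hc was 1.90-fold, Mif 1.51-fold, Thpo 1.31-fold, Gpi1 1.31-fold, Vegfa 1.31-fold and Cxcl12 1.24-fold lower. Ppbp, a platelet chemokine, was 1.74-fold lower and Il16 1.23-fold lower. Ccl1, Cd70, Il12a, Il21 and Il24 were at 35 in both pools and have no fold.

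For the T cell markers fixed as a check (Cd40lg, Il2, Il4, Il17a and Il21), 1 of 5 was at the limit on ND and 4 of 5 on HFD. Of the 5, 4 were lower, against 29.1% of all genes, and Cd40lg with its early ND well is among them. Their summed level relative to the references was 12.1 on ND, nearly all of it Cd40lg, 1.40e-05 on HFD and between 3.46e-05 and 2.77e-04 in the other pools. Of the stromal and sinusoidal markers Bmp2, Bmp4, Bmp6 and Cxcl12, 1 of 4 was lower, close to the share of all genes. Their summed level was 0.372 on ND, 0.292 on HFD and 0.162 to 0.382 elsewhere, most of it Cxcl12. Bmp2, Bmp4 and Bmp6 were each above all other pools on ND, as was Bmp2 on HFD. Cxcl12 was within the range of the other pools on both diets. The part of these markers in the results was not tested.

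Lower genes were found at early and at late cycles. Of the 20 genes with an ND Ct below 22, 8 were lower, of the 22 genes between 22 and 26, 2 were lower, of the 20 between 26 and 30, 6, and of the 16 between 30 and 35, 7. Without Il3, Cd40lg and Csf2, 5 of the 17 genes below 22 were lower. The higher genes, by contrast, all had an ND Ct above 26. With bounds at their value, the median absolute log2 fold was 0.81 below 22, 0.44 from 22 to 26, 0.935 from 26 to 30 and 1.78 from 30 to 35. In the last band Adipoq, Ccl20, Il11, Il13, Il17a, Il2, Il22 and Mstn are bounds, whose size follows from their ND Ct. The figure for late wells is thus not a measured spread alone. Of the 23 lower genes, 11 rest on a bound from a well at the limit in the HFD pool.

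Levels relative to the references were also placed against the 6 remaining pools, as a description only, since genes chosen for a low HFD or a high ND value tend to such positions. Of the 23 genes lower on HFD, 10 were below all 6 other pools on HFD (Il5, Cxcl13, Il4, Ccl20, Il11, Il6, Il10, Cxcl1, Ccl11 and Cx3cl1), against 21.4% of all 84 genes. On ND, 5 were above all 6 (Il3, Cd40lg, Adipoq, Bmp6 and again Il5), against 14.3% of all genes. None of the 23 was above the 6 other pools on HFD, against 2.38% of all genes. The other 9 could not be placed outside the range of the rest on either diet, Csf2 and Tnfsf11 among them. Of these, Tnfsf11, Il13, Il17a, Mstn and Il2 were at the limit on HFD and in at least 1 other pool. Their place on HFD is therefore not known.

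**Figure D3:**
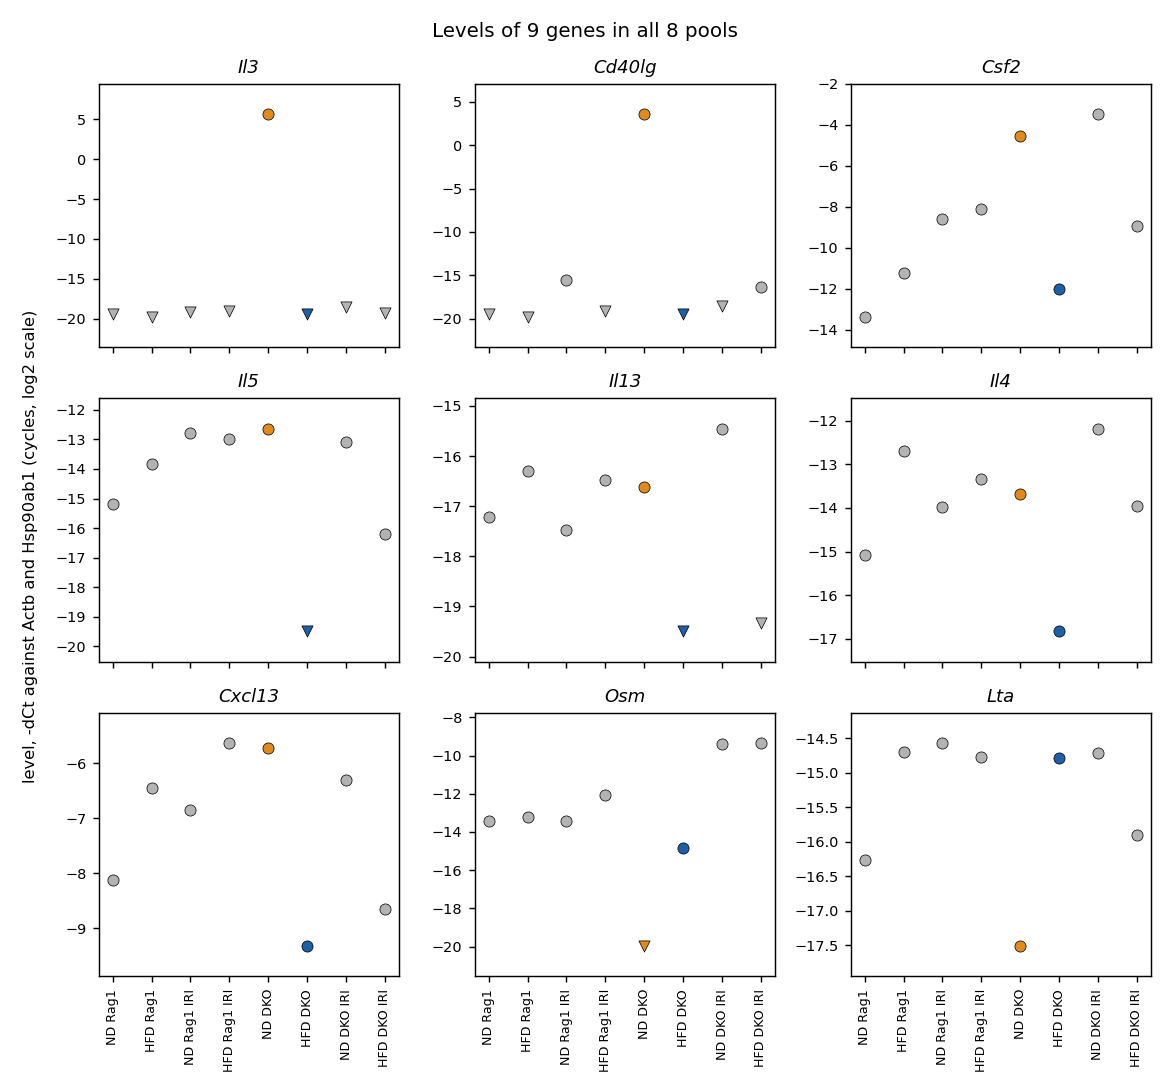
Level (-ΔCt against Actb and Hsp90ab1, in cycles, a log2 scale, y axis) of 9 genes in all 8 pools (x axis), with a separate y range for each gene. Orange marks the ND and blue the HFD uninjured Rag1-Tbet DKO pool, grey the other 6, and a downward triangle is a well at the limit, where the level is at most the value drawn. Il3 and Cd40lg are high in the ND pool alone, Il5, Il4 and Cxcl13 are lowest in the HFD pool, and Osm and Lta are lowest in the ND pool.

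The same diets were also compared after IRI in Rag1-Tbet DKO mice, in pools that share no RNA with the uninjured ones. There, 18 of 80 genes (22.5%) were at least 2-fold lower on HFD and 7 (8.75%) were higher. Of the 23 genes lower without injury, 22 had a fold after injury and 13 of these were lower there too, 56.5% of the first list and 72.2% of the second. Among the 58 other genes with a fold after injury, 5 were lower (8.62%). The 13 shared genes were Csf2, Il5, Tnfsf11, Cxcl13, Adipoq, Il4, Il13, Ccl20, Il17a, Mstn, Cxcl1, Il1b and Cx3cl1. Csf2 was 44.2-fold, Il5 8.66-fold, Cxcl13 5.08-fold and Il4 3.40-fold lower after injury, and Il13 and Il17a were at the limit on HFD there as well, at least 14.8-fold and at least 14.7-fold lower. Type 2 cytokines and eosinophil chemokines were again lower for 4 of 6 genes, with Ccl24 (2.76-fold) in place of Ccl11. Il6 (1.08-fold higher), Il10 (1.36-fold higher), Il11 (1.59-fold higher) and Ccl11 (1.24-fold higher) were not lower after injury, and Cd40lg was at least 4.74-fold higher. None of the 5 genes higher without injury was higher after it, and Il12b (13.2-fold lower), Lta (2.29-fold lower) and Il17f (1.77-fold lower) had the opposite sign. Across the 65 genes measured in all 4 pools, the log2 folds had a Pearson correlation of 0.412 and a Spearman correlation of 0.176, and without Csf2 the Pearson correlation was 0.063. Genes at the limit, which hold several of the shared calls, do not enter these correlations, and genes are not independent replicates.

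In Rag1-/- liver without injury, the direction of the diet difference over the array depended on the reference. Against Actb and Hsp90ab1, on HFD, 55 of 77 genes (71.4%) were at least 2-fold higher and 1 (1.30%, Il9) was lower, with a median log2 fold of 1.41 over the 69 genes measured in both pools. Against the median Ct, 11 were higher and 22 lower there, while in Rag1-Tbet DKO liver 18 were higher and 13 lower. Of the 23 genes lower in Rag1-Tbet DKO liver, 13 were higher in Rag1-/- liver, 56.5% of the first list and 23.6% of the second, and none was lower. Of the 19 with a fold in both genotypes this was 68.4%, near the 71.4% of all genes, so that the overlap says nothing particular of these genes. Csf2 was 4.41-fold, Il4 5.24-fold, Cxcl13 3.18-fold, Il5 2.53-fold and Xcl1 20.4-fold higher, and Tnfsf11, at the limit on ND, was at least 17.9-fold higher on HFD. The effector genes below 2-fold in Rag1-Tbet DKO liver were among those higher in Rag1-/- liver, with Ifng 5.78-fold, Tnfsf10 5.31-fold, Fasl 3.92-fold and Tnf 3.68-fold higher. After centring on the median fold their log2 values there were 1.08, 0.96, 0.52 and 0.43, and Ifng alone was past 2-fold, and against the median Ct none of the 4 was. Of the 5 genes higher in Rag1-Tbet DKO liver, 3 (Il12b, Lta and Cxcl3) were higher in Rag1-/- liver too, 60% against 71.4% of all genes. After centring, Il12b and Cxcl3 stayed past 2-fold in Rag1-/- liver and Lta, at a log2 value of 0.125, did not. Against the median Ct, Cxcl3 alone did. Of the 13 genes lower in both Rag1-Tbet DKO comparisons, 7 were higher in the Rag1-/- one, where 71.4% of all genes were. These were Csf2, Il5, Tnfsf11, Cxcl13, Adipoq, Il4 and Ccl20, and after centring Tnfsf11 alone of the 7 stayed past 2-fold there. Il17a and Mstn of the 13 had no fold in Rag1-/- liver. This count, too, says nothing particular of these genes. Centred on the median fold of each comparison, 17 genes were higher and 12 lower in Rag1-/- liver, so that the count there depended strongly on the shift of the whole array. The difference between genotypes was not tested, since each has 1 pool per diet.

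**Figure D4:**
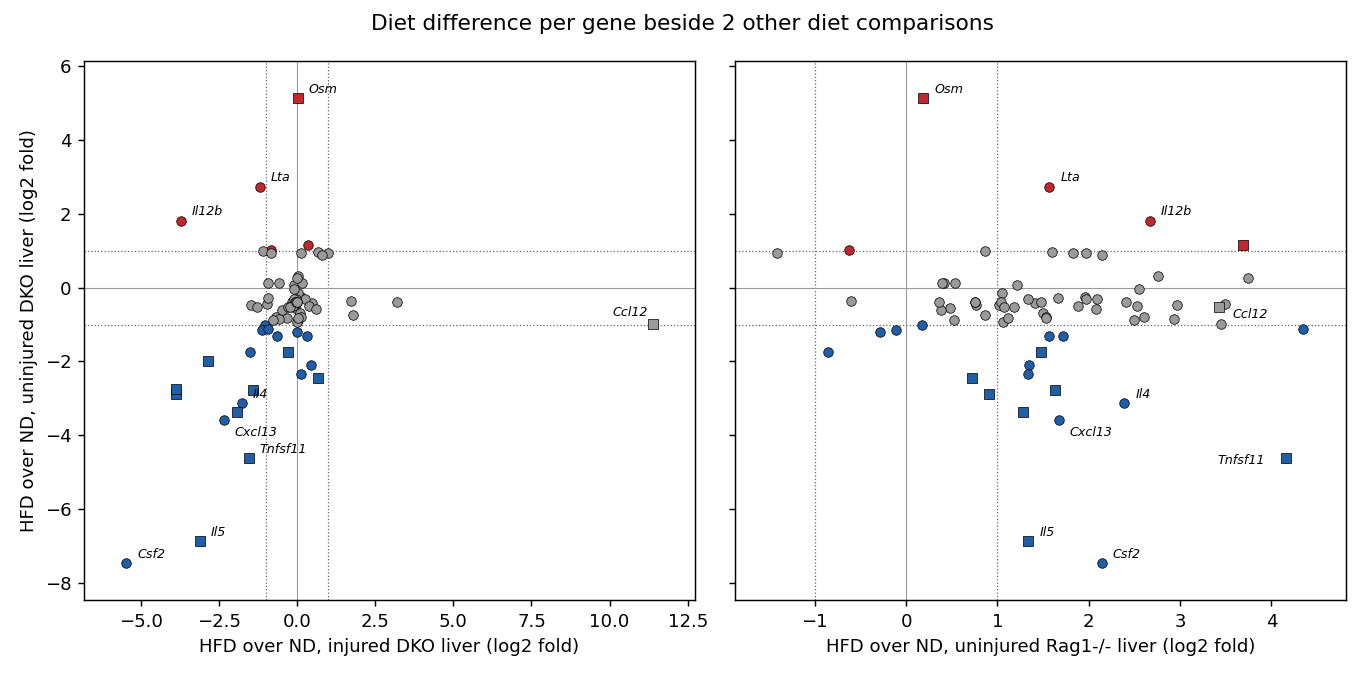
Log2 fold of HFD over ND in uninjured Rag1-Tbet DKO liver (y axis) against that in injured Rag1-Tbet DKO liver (left, x axis) and in uninjured Rag1-/- liver (right, x axis), 1 point per gene. Blue and red mark genes at least 2-fold lower or higher in uninjured Rag1-Tbet DKO liver, squares involve a bound, dotted lines mark 2-fold, and Il3 and Cd40lg are not drawn. On the left 13 blue genes are also past 2-fold lower, and on the right 13 blue genes are past 2-fold higher.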

How the data were processed

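Whole liver RNA was pooled from at least 3 mice per group, and 1.25 µg was reverse transcribed and run by the authors on a quantitative PCR array with 84 genes for cytokines and chemokines plus 5 housekeeping genes. The deposited table holds 1 Ct per gene and pool, with values at the limit of detection entered as 35. A second deposited table holds the authors' ratio to reference genes, which for the ND and HFD pools compared here corresponds to a reference near 27.27 and 27.63 cycles, far from the housekeeping genes and of genes not settled here, and it was used as an alternative only, and the authors' own fold changes were not used. Log2 folds were the negative difference of ΔCt against the mean of Actb and Hsp90ab1, assuming a 2-fold product per cycle, and 2-fold was the threshold. With 1 pool and 1 well a side there is no error estimate, and precision at late cycles is unknown. All genes at least 2-fold different, the housekeeping genes and a set of effector genes were named with both Ct values. The members, lists and tests were chosen with earlier results of these data known. Of the 89 RefSeq identifiers of the array, 88 were found with the same name in the RefSeq annotation. Promoter windows (GRCm38.p6) were taken from a separate set of promoter sequences, and the RefSeq annotation gave the gene starts and the gene order. Alternatives were other references, a limit of 32, a threshold of 3-fold, measured genes only and the deposited ratios. The scripts were tested on simulated data. Computations ran in Python 3.11.15 with pandas 2.3.3 and numpy 2.4.6, and plots were drawn with matplotlib 3.10.9.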

Additional observations from a re-analysis of the deposited data

Results flagged for a closer look

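Tnfsf11 (RANKL) differed in the sign of its diet difference between genotypes. In uninjured Rag1-Tbet DKO liver its log2 fold of HFD over ND was at most -4.62, with the HFD pool at the limit, and in uninjured Rag1-/- liver it was at least 4.16, with the ND pool at the limit. The difference between the bounds was -8.78 on the log2 scale, and -6.86 after each comparison was centred on its median fold. It was not tested, since each group is 1 pool.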

How the results depend on the processing

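No paired analysis was possible because each group is 1 pool. In uninjured Rag1-Tbet DKO liver, with 5 genes higher, 23 lower and a median log2 fold of -0.47, the median Ct as reference gave 18 higher, 13 lower and 0.63, and Nodal, Il9 and Csf1 gave 3, 37 and -0.91. Raw Ct gave 3, 39 and -0.94. The number higher was 11 with all 5 housekeeping genes, 10 with Actb alone and 3 at 3-fold, and 12 genes were lower among those measured in both pools. Centring, chosen after seeing the data like the counts without Il3, Cd40lg and Csf2, gave 11 higher and a median of 0. In uninjured Rag1-/- liver, with 55 higher and 1 lower, the median Ct gave 11 and 22, Nodal, Il9 and Csf1 26 and 6, 3-fold 34 and 0, and centring 17 and 12. The number lower was 2 with Gapdh added, 4 with all 5 housekeeping genes, 0 at a limit of 32 and 2 with the deposited ratios. In injured Rag1-Tbet DKO liver, with 7 higher and 18 lower, raw Ct gave 19 and 8, a limit of 32 gave 4 higher, measured genes only gave 3 higher and 3-fold gave 9 lower. Cx3cl1 turned to a log2 fold of 0.08 with the median Ct. At a limit of 32, Ccl20 (0.215), Il13 (0.115) and Il17a (0.255) were within a fraction of a cycle of the limit in both pools, and those bounds carry no direction. With Actb, Hsp90ab1, added Gapdh, all 5 housekeeping genes or the deposited ratios, every one of the 79 log2 folds moved by less than the spread of the housekeeping genes. Each of these references moves all genes by 1 constant or nearly so, and the spread comes from the housekeeping genes themselves. It is therefore no check gene by gene. Depth could not be assessed beyond the limit of 35, and 1 well decides each value.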
